A study of Mus musculus with 7 samples.

Results

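Semaphorins are secreted or membrane-bound guidance proteins, plexins are their main receptors, and neuropilins are the co-receptors through which most secreted semaphorins reach plexins. Members were taken by symbol (Sema3 to Sema7, Plxna to Plxnd, Nrp1 and Nrp2), and the family itself was picked with earlier results of these data known. This gave 31 of the 17732 genes in the authors' deposited table, namely 20 semaphorins, 9 plexins and 2 neuropilins. All 31 passed the authors' filter on low counts and had an adjusted p-value.

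Bulk polyadenylated RNA was sequenced from the medial prefrontal cortex of wild-type male 129SvEv mice, an inbred strain, taken after a remote memory had been retrieved. Per the labels there were 3 libraries in the group CFC and 4 in the group SC. What CFC and SC stand for is not written in the labels, and the groups share strain, genotype, sex and tissue. Ages are not given, and no label says whether a library is 1 animal or a pool, so p-values measure the spread between libraries, which may be partly technical. The deposited table holds, per gene, 1 mean normalized count over the libraries, 1 log2 fold change and its standard error. Values of single libraries were not analysed here. Which group is the numerator is not stated, so each difference is given as positive or negative after its sign in that table, and neither group is called higher.

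Plexins carry a GTPase-activating domain inside the cell. Semaphorin binding to the outside part releases it from an inhibited state, and signals through small GTPases and the collapsin response mediator proteins remodel the cytoskeleton. In development this steers axons and migrating neurons. In the adult cortex, members of the family are also known to act at synapses, in blood vessels and in the oligodendrocyte lineage.

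Both class 5 semaphorins, Sema5a and Sema5b, differed between the groups, with the same sign and a similar size. They were the only members with an adjusted p-value under 0.05 in the authors' deposited table, so 2 of 31 were called, both positive. Of all 13060 genes with an adjusted p-value, 0.513% were called in either sign, and 0.368% were called positive. Before adjustment, p was under 0.05 for 7 members, 6 positive and 1 negative, against 8.1% of all genes with an adjusted p-value in either sign. Of those genes 4.56% were positive and 3.54% negative at that threshold. Over the 31 members, 21 log2 fold changes were positive and 10 negative, with a median of 0.10. The median over all 13060 genes was -0.0017, and 49.4% of them were positive. Without the class 5 pair, 19 of 29 were positive and the median was 0.08.

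**Figure D1:**
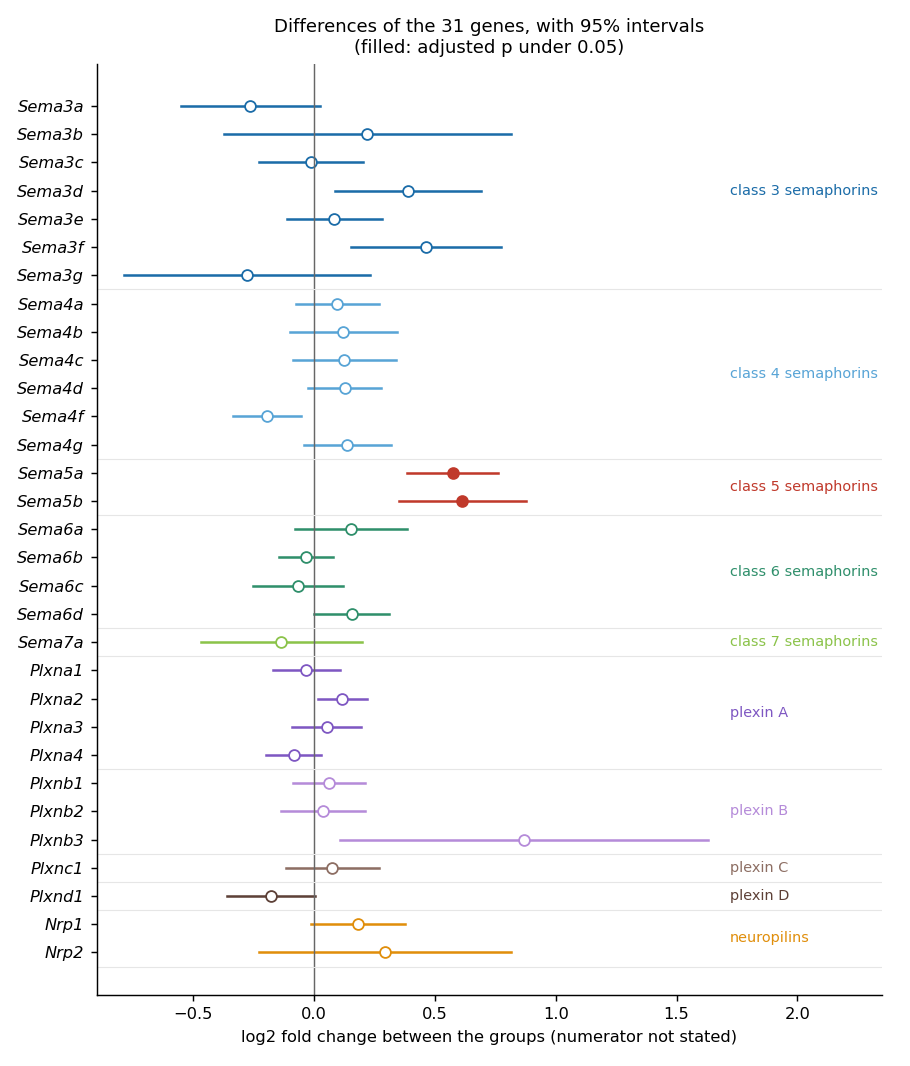
Log2 fold change between CFC and SC (horizontal axis, numerator not stated) of each of the 31 genes, with 95% confidence intervals computed from the authors' standard errors. Filled points are the 2 genes with an adjusted p-value under 0.05, Sema5a at 0.57 and Sema5b at 0.61, and the widest interval is that of Plxnb3, from 0.11 to 1.63.

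Class 5 semaphorins are transmembrane proteins with thrombospondin repeats outside the cell, a feature that sets them apart from the other vertebrate classes. Sema5a is known as a guidance cue with attractive and repulsive actions, as a ligand of plexin A and plexin B receptors, and as a regulator of synapse number in the hippocampus. Sema5a (ENSMUSG00000022231) lies on GRCm38 chromosome 15, from 32244810 to 32696341 on the plus strand, with 9 transcripts in GENCODE M21. Sema5b (ENSMUSG00000052133) lies on chromosome 16, from 35541145 to 35664732 on the plus strand, with 8 transcripts. The promoters of the pair are shown because these were the 2 called members. Both come from RefSeq on GRCm38.p6, which gives the 250 bases before a start site, and each is printed up to the base before the GENCODE start of the gene. This leaves 247 bases of Sema5a at chr15:32244563-32244809 and 33 bases of Sema5b at chr16:35541112-35541144, both on the plus strand. Capitals mark matches to the GC box GGGCGG on either strand.
Sema5a: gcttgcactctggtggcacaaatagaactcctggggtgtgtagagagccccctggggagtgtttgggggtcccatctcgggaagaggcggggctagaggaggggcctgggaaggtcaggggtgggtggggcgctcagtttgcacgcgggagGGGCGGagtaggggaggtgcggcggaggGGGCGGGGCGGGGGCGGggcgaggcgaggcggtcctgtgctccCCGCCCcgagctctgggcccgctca
Sema5b: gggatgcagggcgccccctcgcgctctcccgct

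The following counts are over the whole RefSeq windows of 250 bases, of which the last 217 in Sema5b lie inside the GENCODE gene. Both windows were 72% G and C. They held 17 CpG dinucleotides in Sema5a and 19 in Sema5b, against a median of 6 over 32851 promoter windows of the same length. Of all windows, 76% held fewer than Sema5a and 80% fewer than Sema5b. The GC box matched 5 times in Sema5a, some of them overlapping, and was not found in Sema5b. It occurred in 32.7% of all windows and in 27 of the 37 windows that belong to members of the family. The Egr motif GCGNGGGCG, searched on both strands, matched once in Sema5a within the run of GC boxes, was not found in the Sema5b window, and occurred in 4.70% of all windows. The TATA box (TATAAA), the CCAAT box, the AP-1 motif (TGANTCA) and the core of the cyclic AMP response element (TGACG) were found in neither window on either strand. These 4 motifs occurred in 12.4%, 33.8%, 6.75% and 17.8% of all windows. Among the 37 windows of members they occurred in 0, 7, 3 and 1, and the Egr motif in 5. A match describes the letters in the window and shows no binding.

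Per the authors' deposited table, Sema5a had a mean normalized count of 1419 and a log2 fold change of 0.57 ± 0.10 (SE). This is a 1.49-fold difference, with a 95% confidence interval from 1.31-fold to 1.70-fold. Its adjusted p-value per the authors' deposited table was 1.9e-05, and its unadjusted p-value had rank 2 among 17729 genes. Sema5b had a mean normalized count of 488 and a log2 fold change of 0.61 ± 0.13 (SE) per the authors' deposited table. This is a 1.53-fold difference, with an interval from 1.28-fold to 1.83-fold. Its adjusted p-value per the authors' deposited table was 0.00296, and its unadjusted p-value had rank 22. The intervals of the pair overlapped over most of their length, and the difference between the pair was not tested. Counted from the most positive log2 fold change, Sema5a and Sema5b stood at places 148 and 134 of 13060 genes. The standard errors were 1.36 and 1.39 times the median of genes of similar mean count, so the pair was measured somewhat less precisely than is usual at its level. Sema5b went above the threshold under a Bonferroni adjustment, at 0.0604. Both genes did so when the test asked for a change beyond 1.2-fold, at 0.827 for Sema5a and 1 for Sema5b after adjustment. Of the 13060 genes, 21 were called under the Bonferroni adjustment and 3 in the test for a change beyond 1.2-fold.

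Genes beside the pair on the chromosomes were not called. Within 1000 kb of Sema5a the table listed 12 other genes, of which 9 had an adjusted p-value. None was called and none had an unadjusted p-value under 0.05 by the authors' test. The closest gene, Snhg18, lies 0.148 kb away and had no adjusted p-value. Its mean count was 12.7 and its log2 fold change 0.30 ± 0.51 (SE) per the authors' deposited table. Within 1000 kb of Sema5b there were 20 other genes, of which 16 had an adjusted p-value. None was called by the authors' test and 2 had an unadjusted p-value under 0.05. Of all genes with an adjusted p-value, 0.513% were called and 8.1% had an unadjusted p-value under 0.05. No exon of Sema5a or Sema5b overlaps an exon of another gene in GENCODE M21.

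**Figure D2:**
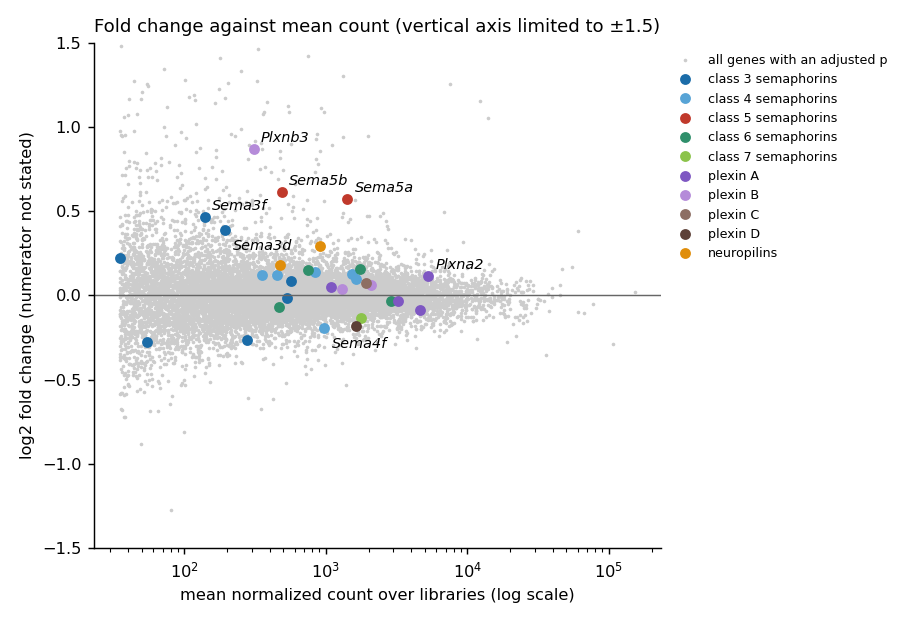
Log2 fold change (vertical axis, numerator not stated) against mean normalized count (horizontal axis, log scale) for all 13060 genes with an adjusted p-value, in grey, and the 31 genes coloured by class. The 7 labelled genes had an unadjusted p-value under 0.05. Sema5a and Sema5b, at counts of 1419 and 488, stand at places 148 and 134 from the most positive gene. Outside the axis limits of 1.5 lie 13 tested genes.

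The secreted class 3 semaphorins signal mainly through neuropilins with plexin A, and Sema3a is their founding member, known for collapsing growth cones. None of the 7 was called. Sema3f, which repels axons through Nrp2 and limits dendritic spines on cortical pyramidal neurons, had the smallest p-value of the class. Per the authors' deposited table its mean normalized count was 140 and its log2 fold change 0.46 ± 0.16 (SE), with an unadjusted p-value of 0.0035 and an adjusted one of 0.22. Its 95% confidence interval ran from 0.15 to 0.77. Sema3d, a guidance cue for axons and vessels, had a mean normalized count of 195 and a log2 fold change of 0.39 ± 0.15 (SE) per the authors' deposited table. Its interval ran from 0.09 to 0.69, with an unadjusted p-value of 0.0119 and an adjusted one of 0.389 per the authors' deposited table. At their standard errors, Sema3f and Sema3d would have needed log2 fold changes of 0.58 and 0.57 to be called.

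Sema3b and Sema3e were also positive, at log2 fold changes of 0.22 and 0.08 per the authors' deposited table. Sema3a, Sema3c and Sema3g were negative, at -0.26, -0.01 and -0.28 per the authors' deposited table. The class thus had 4 positive and 3 negative members. It also held the least abundant members of the family, with Sema3b the lowest and Sema3g next, at a mean count of 54.2 per the authors' deposited table. The intervals of Sema3b and Sema3g, from -0.37 to 0.81 and from -0.79 to 0.23, leave room for changes of over 1.5-fold. That of Sema3c, from -0.23 to 0.20, does not.

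Class 4 semaphorins are membrane proteins, of which Sema4d is known as a plexin B ligand made by oligodendrocytes. Sema4f was the only negative member of the class and the only negative member of the family with an unadjusted p-value under 0.05. Its mean normalized count was 977 and its log2 fold change -0.19 ± 0.07 (SE) per the authors' deposited table. Its interval ran from -0.34 to -0.05, with an unadjusted p-value of 0.00703 and an adjusted one of 0.312 per the authors' deposited table. The other 5, Sema4a, Sema4b, Sema4c, Sema4d and Sema4g, had log2 fold changes from 0.10 to 0.14 per the authors' deposited table, none of them called. All 6 intervals of the class lay within a 1.5-fold change in either direction. For Sema4d the interval ran from -0.02 to 0.28.

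Class 6 semaphorins are transmembrane ligands of plexin A receptors. Sema6b, the most abundant semaphorin, had a mean normalized count of 2876 and a log2 fold change of -0.03 ± 0.06 (SE) per the authors' deposited table. Its interval, from -0.14 to 0.08, was the narrowest among the semaphorins. Sema6a and Sema6d were positive, both at 0.15, and Sema6c was negative, at -0.07, per the authors' deposited table, none of them called. Sema6d came closest, with an unadjusted p-value of 0.0502 per the authors' deposited table. Sema7a, anchored in the membrane by a lipid and known to bind plexin C1 and integrins, had a log2 fold change of -0.14 ± 0.17 (SE) with adjusted p = 0.991 per the authors' deposited table. All 5 intervals of these classes lay within a 1.5-fold change.

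Plexin A receptors, the main partners of class 3 and class 6 semaphorins, include Plxna1, Plxna2, Plxna3 and Plxna4. Plxna2 had a mean normalized count of 5278 and a log2 fold change of 0.12 ± 0.05 (SE) per the authors' deposited table. Its interval ran from 0.01 to 0.22, with an unadjusted p-value of 0.0263 and an adjusted one of 0.522 per the authors' deposited table. Plxna4 and Plxna1 had mean normalized counts of 4586 and 3224 and log2 fold changes of -0.09 ± 0.06 (SE) and -0.03 ± 0.07 (SE) per the authors' deposited table. Their intervals ran from -0.20 to 0.03 and from -0.17 to 0.11. Plxna3 was at 0.05 per the authors' deposited table. The standard error of Plxna2 was the smallest of the family, and a log2 fold change of 0.19 for Plxna2 and of 0.27 for Plxna3 would have been called. Exons of Plxna1 share 970 bases, 10.7% of their length, with the antisense gene Gm26811, whose reads cannot be told apart without the strand setting. Exons of Plxna4, Plxnb1 and Sema4c share 110, 257 and 334 bases with genes on the opposite strand.

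Plexin B receptors bind class 4 semaphorins. Plxnb3, a receptor of Sema5a found mainly in the oligodendrocyte lineage, had the largest log2 fold change of the family, 0.87, with a standard error of 0.39 per the authors' deposited table. Its mean normalized count was 308, its unadjusted p-value 0.0254 and its adjusted p-value 0.517 per the authors' deposited table. Its interval ran from 0.11 to 1.63, and a log2 fold change of 1.43 would have been needed for a call. Plxnb1, the main receptor of Sema4d, had a mean normalized count of 2076 and a log2 fold change of 0.06 ± 0.08 (SE) per the authors' deposited table, with an interval from -0.09 to 0.21. Plxnb2 was at 0.04 per the authors' deposited table. Plxnc1, the receptor of Sema7a, had a mean normalized count of 1912 and a log2 fold change of 0.07 ± 0.10 (SE) per the authors' deposited table, with an interval from -0.12 to 0.27. Plxnd1, the receptor of Sema3e, had a log2 fold change of -0.18 ± 0.09 (SE) and an unadjusted p-value of 0.0551 per the authors' deposited table.

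Both neuropilins were positive and neither was called. Nrp1, the co-receptor of Sema3a and of vascular endothelial growth factor, had a log2 fold change of 0.18 ± 0.10 (SE) per the authors' deposited table. Nrp2, the co-receptor of Sema3f, had a log2 fold change of 0.29 ± 0.27 (SE) per the authors' deposited table, and its interval ran from -0.23 to 0.81. Of the 31 intervals, 23 lay within a 1.5-fold change in either direction. The other 8 were those of Sema3b, Sema3d, Sema3f, Sema3g, Sema5a, Sema5b, Plxnb3 and Nrp2.

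Known ligand and receptor pairs can be set side by side. Sema5a was at 0.57. Its receptors Plxna1, Plxna2, Plxna3 and Plxnb3 had log2 fold changes of -0.03, 0.12, 0.05 and 0.87 per the authors' deposited table. None of these receptors was called. Sema5b was at 0.61 and is not paired with a receptor here. Sema3e and Plxnd1 had opposite signs, at 0.08 and -0.18, as did Sema7a and Plxnc1, at -0.14 and 0.07, per the authors' deposited table. Sema4d and Plxnb1 were at 0.13 and 0.06, and Sema3f and Nrp2 at 0.46 and 0.29, per the authors' deposited table. None of the differences within pairs was tested.

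Levels can be compared between genes only per length, so each mean count was divided by the length of the gene's exons in GENCODE M21. The scale is then the mean normalized count per kb of exon, with no spread over libraries. Sema6b stood at 725 per kb and Sema7a at 534, followed by Plxna1 at 356, Plxna4 at 325, Plxna2 at 307 and Sema4a at 304. The class 5 pair lay lower and close together, with Sema5a at 75.9 per kb and Sema5b at 68.9. Plxnb3 was at 47.4 per kb. Class 3 semaphorins filled most of the lower end, with Sema3f, Sema3d, Sema3a, Sema3g and Sema3b at 26.9, 22.7, 20.1, 11.9 and 7.33 per kb. The order depends on the length used. With the longest transcript, Sema4a was at 513 per kb and Plxna2 at 478, above Plxna1 at 357 and Plxna4 at 356, while Sema5a was at 131 and Sema5b at 105.

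**Figure D3:**
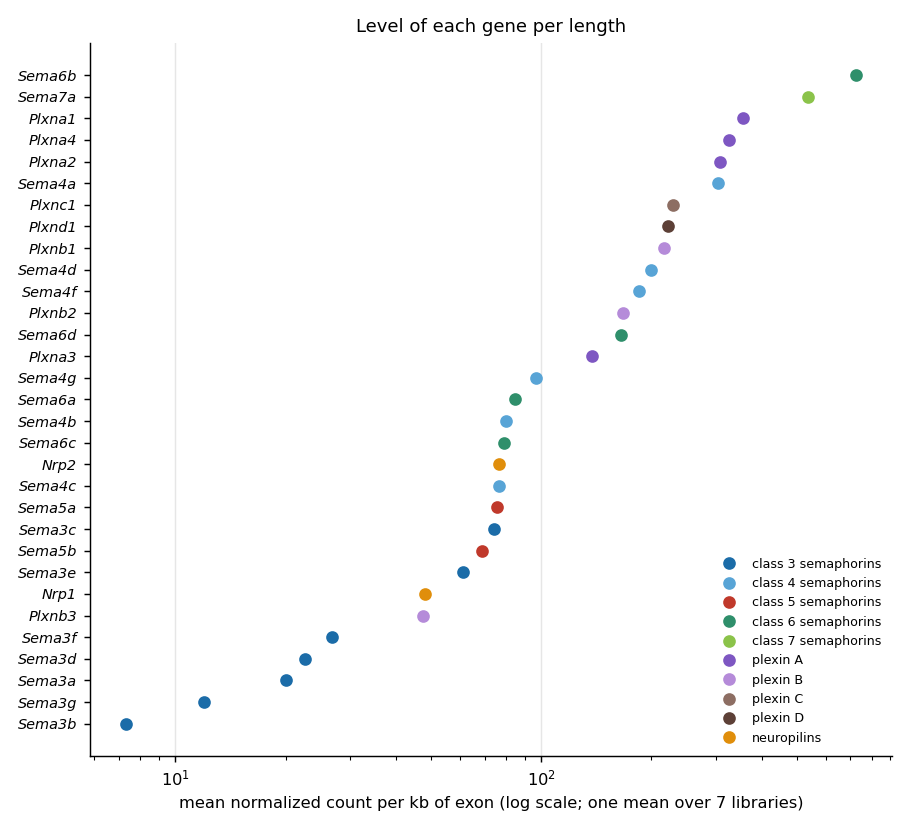
Mean normalized count per kb of exon (horizontal axis, log scale) of the 31 genes, ordered by level and coloured by class; each point is 1 mean over the 7 libraries, with no error. Levels run from 7.33 for Sema3b to 725 for Sema6b, with Sema5a at 75.9 and Sema5b at 68.9.

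The standard errors of 3 members were more than 2 times the median of genes of similar mean count. These were Plxnb3 at 3.40 times, Nrp2 at 3.39 times and Sema7a at 2.53 times, while the other 28 lay between 0.883 and 1.49 times. Of all genes with an adjusted p-value, 1.85% lay above 2 times. A large ratio means that the libraries of a group differed more than is usual for such a gene. The list of 16 mature oligodendrocyte and myelin genes, such as Mbp, had a median ratio of 5.40. All 16 of its genes were positive, with a median log2 fold change of 1.14, none of them called, and 15 had an unadjusted p-value under 0.05. Of all genes with an adjusted p-value, 49.4% were positive and 8.1% had an unadjusted p-value under 0.05. The 9 striatal neuron genes, all positive as well, had a median ratio of 3.33, with 7 of them above 2 times. Above 2 times were also 4 of the 13 deep layer genes. In the list of oligodendrocyte precursor and newly formed oligodendrocyte genes, 2 of 9 were above 2 times. The sign and the raised standard error of Plxnb3 were found in more than 1 marker list. Sema4d, which oligodendrocytes also make, had a ratio of 1.11 and a log2 fold change of 0.13 per the authors' deposited table. Which cells the RNA of Sema4d came from is not known here. The part of RNA from oligodendrocytes or striatal neurons in the values of Plxnb3 and Nrp2 was not tested. In bulk tissue, fewer cells of a type and less RNA per cell cannot be told apart.

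**Figure D4:**
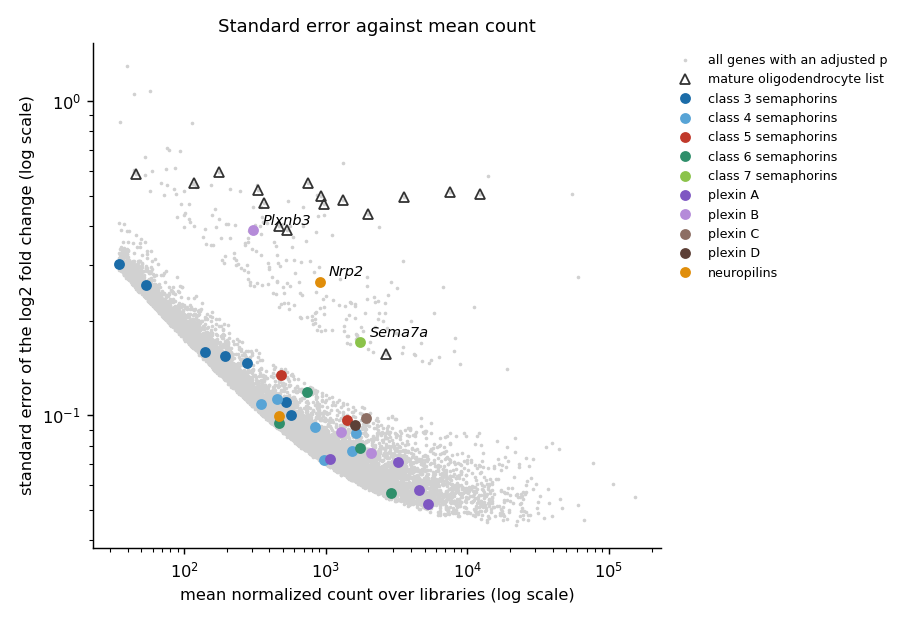
Standard error of the log2 fold change against mean normalized count (both axes log scale) for all genes with an adjusted p-value (grey), the 31 genes (coloured by class) and the 16 mature oligodendrocyte genes (open triangles). Plxnb3, Nrp2 and Sema7a lie above the grey trend at 3.40, 3.39 and 2.53 times the median of genes of similar count.

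Other genes of the pathway were taken from 3 lists holding 65 genes, of which 64 had a value. In these lists 1 gene was called, positive, out of 62 with an adjusted p-value (1.61%, against 0.513% of all genes). An unadjusted p-value under 0.05 was given to 9 of the 64 (14.1%, against 8.1% of all genes with an adjusted p-value), 6 positive and 3 negative. The 64 log2 fold changes had a median of -0.0064, with 31 positive and 33 negative. The called gene was Dpysl5, a collapsin response mediator protein that regulates dendrite and axon growth. Per the authors' deposited table it had a mean normalized count of 1290, a log2 fold change of 0.47 ± 0.10 (SE) with adjusted p = 0.00152. It was not called when the test asked for a change beyond 1.2-fold.

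The collapsin response mediator proteins carry the Sema3a signal to microtubules, and all 5 were positive. They belong to the list of 42 intracellular effectors, with 22 positive and 20 negative genes, and were not planned as a group. Dpysl2, Dpysl3, Dpysl4 and Crmp1 had log2 fold changes of 0.49, 0.21, 0.10 and 0.02 per the authors' deposited table, none of them called. Dpysl2, which is also abundant in oligodendrocytes, had a standard error of 0.26, which is 4.39 times the median of genes of similar mean count.

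Of the 42 intracellular effectors and regulators, 22 were positive and 20 negative, with a median of 0.0013. After Dpysl5, the smallest unadjusted p-values were those of Rnd3, Gipc1, Dpysl3 and Gsk3b. Rnd3 is a small GTPase, Gipc1 a scaffold that binds neuropilin tails, and Gsk3b a kinase of the response mediator proteins. The authors' deposited table gave log2 fold changes of 0.42 for Rnd3, -0.18 for Gipc1 and 0.15 for Gsk3b, with adjusted p = 0.271, 0.391 and 0.467. Of the 15 receptor partners with a value, 8 were positive and 7 negative, with a median of 0.0067 and none called. The smallest p-values were those of Plxdc2, Chl1, Plxdc1 and Nrcam, at log2 fold changes of 0.22, 0.18, -0.31 and 0.08 per the authors' deposited table. Chl1 and Nrcam are adhesion proteins that pair with neuropilins in class 3 receptors. Of the 7 other neuropilin ligands, such as Vegfa, 1 was positive and 6 negative, with a median of -0.10 and none under an unadjusted p-value of 0.05 by the authors' test. Those with the smallest p-values were Vegfc, Vegfd, Vegfb and Pgf, at log2 fold changes of -0.43, -0.23, -0.10 and 0.34 per the authors' deposited table.

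Cell type markers give the setting of these values. The lists were chosen with earlier results of these data known, so their counts are description and no independent support. Of all genes with an adjusted p-value, 0.513% were called, 0.368% positive and 0.145% negative. The 13 deep cortical layer genes, of which 13 were positive and 6 called, had a median log2 fold change of 0.49, with Ccn2, Nxph4 and Foxp2 at 2.10, 1.98 and 0.73 per the authors' deposited table. The 9 upper layer genes were all negative, with 2 called, Rasgrf2 and Otof, and a median of -0.22. All 9 striatal neuron genes were positive, with Drd1 called and a median of 0.70. The deep layer, striatal, mature oligodendrocyte and choroid plexus lists were all positive throughout, as were Sema5a, Sema5b and Dpysl5. The choroid plexus list had only 4 genes with a value, of which 1 had an adjusted p-value. Its largest value, that of Ttr at a mean count of 67.0, was 1.86 ± 1.11 (SE) and came without any p-value. The part of these lists in the values of Sema5a, Sema5b and Dpysl5 was not tested. The table gives no level of these lists per group.

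Of the oligodendrocyte precursor genes 6 of 9 were positive, with a median of 0.05. Among excitatory neuron genes 4 of 7 were positive, with a median of 0.0011 and 1 called, Camk2a, which was negative. Interneuron genes were positive in 4 of 9 cases, with a median of -0.0082. Astrocyte genes were positive in 2 of 8, with a median of -0.08, and microglial genes in 0 of 8, with a median of -0.11. Endothelial and pericyte genes were positive in 2 of 10, with a median of -0.14. Fibroblast genes were positive in 5 of 8, with a median of 0.23, choroid plexus genes in 4 of 4, with a median of 0.73, and blood genes in 0 of 4, with a median of -0.25. Apart from Camk2a, no gene of these 9 lists was called by the authors' test, and 12 of their 66 genes with a value, Camk2a included, had an unadjusted p-value under 0.05, 3 positive and 9 negative. This is 18.2%, against 8.1% of all genes with an adjusted p-value. The plot of lists shows each gene of the family, of the pathway lists and of the marker lists on 1 scale.

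**Figure D5:**
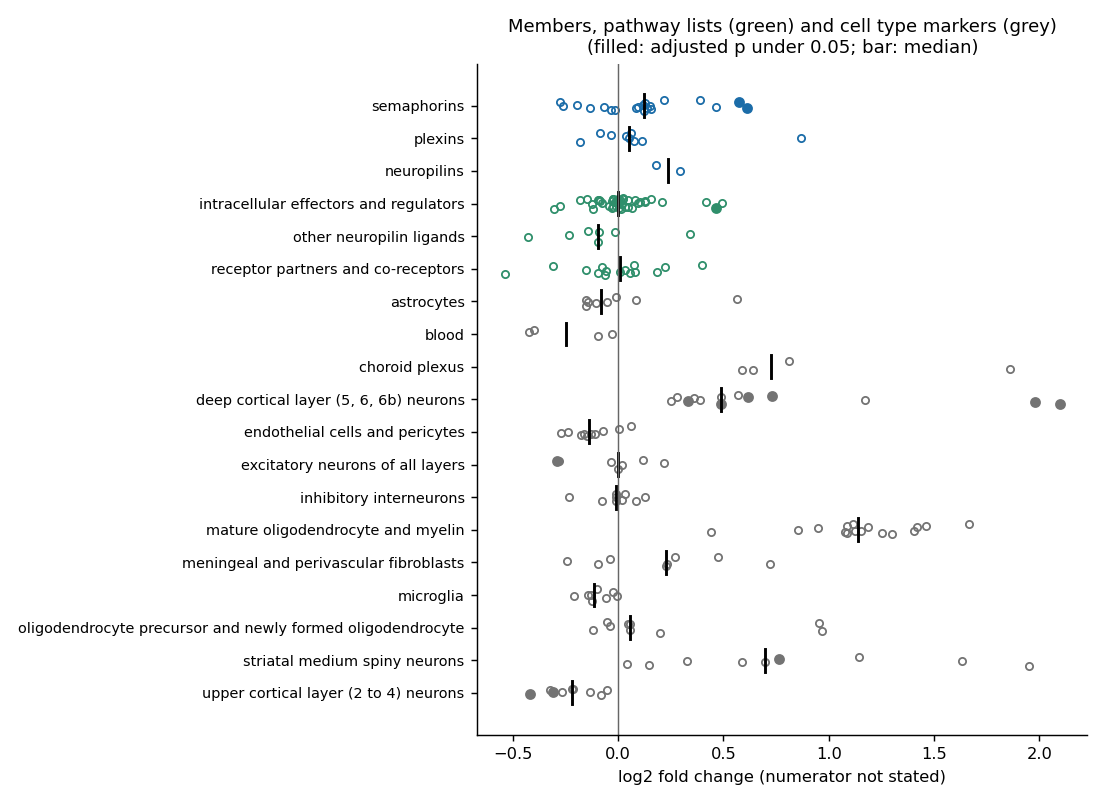
Log2 fold change (horizontal axis, numerator not stated) of each gene in the family (blue), the 3 pathway lists (green) and the 13 marker lists (grey); filled points have an adjusted p-value under 0.05 and bars are medians. The median is 1.14 for the mature oligodendrocyte list, 0.49 for the deep layer list and -0.22 for the upper layer list, against 0.12 for the 20 semaphorins.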

How the data were processed

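Libraries were made with the KAPA mRNA HyperPrep kit from 100 ng of RNA, itself isolated with an RNeasy Micro kit, per the labels' protocols. Per the submitters' processing notes, Trimmomatic, Subread and DESeq2 were used with the build mm10, with no versions given. The annotation, the strand setting and the contrast are not given in the sources used here. Per the file headers, the deposited table holds a mean normalized count (a signal averaged over libraries), a log2 fold change with its standard error, a test score (the Wald statistic), and p-values before and after adjustment. The score equalled the log2 fold change over its standard error to within 1e-06 in all 17729 genes with a p-value. Adjusted p-values were deposited for 13060 genes, whose lowest mean count was 34.9, and the threshold was 0.05. The ratio of adjusted to unadjusted values shows an adjustment over 14432 genes. The other 1372 were not analysed here, so shares, ranks and the Bonferroni adjustment are over the listed genes.

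Because the table holds no counts per library, the authors' own test was used, and the depth of single libraries is unknown. From the deposited values, 95% intervals used the normal quantile, and standard errors were divided by the running median over 501 genes ordered by mean count. Exon lengths came from GENCODE M21 on GRCm38, which held 17726 of the 17732 IDs, and promoter sequences for 26 of 31 members came from RefSeq. Calculations used Python 3.11.15 with pandas 2.3.3, SciPy 1.17.1 and matplotlib 3.10.9, and were tested on simulated data. The rule for genes described in full took members with an unadjusted p-value under 0.05 or among the 6 highest means, called pathway genes with the 4 next smallest p-values per list, and at most 3 called genes per marker list. Values printed for other members were chosen after they had been seen, and the collapsin response mediator proteins were set apart outside this rule. The family and the lists were chosen with earlier results of these data known. Alternatives changed the adjustment, the threshold, the filter on mean counts, the null hypothesis, the scale of the statistic, the gene length and the window.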

Additional observations from a re-analysis of the deposited data

How the results depend on the processing

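No paired analysis was possible because the table analysed holds no values per library. For the same reason other normalizations and fits without 1 library were not run, and whether 1 library decides a value was not tested. The count of 2 positive members under an adjusted p-value of 0.05 became 1 under a Bonferroni adjustment and 0 when the test asked for a change beyond 1.2-fold, and stayed at 2 in the other 5 alternatives. Both of these are stricter by construction. The adjusted p-value of Sema5a ranged from 3.09e-06 to 0.827 over its alternatives and that of Sema5b from 0.000954 to 1. Among pathway genes, the 1 positive call became 0 in the test for a change beyond 1.2-fold. At an unadjusted p-value under 0.05, 6 positive and 1 negative members became 2 and 0 in the test for a change beyond 1.2-fold. With the statistic divided by its robust SD of 0.956, which enlarges every statistic, there were 7 positive and 2 negative members. No negative member and no negative pathway gene was called under any alternative run. Of the single adjusted p-values of members, 181 kept their side of the threshold and 3 became weaker. All 3 were those of Sema5a or Sema5b. Most of the 181 belong to members that were not called, and the stricter alternatives could not have called these. Levels of 11 members moved by more than 1.5 times with the length of the longest transcript, and 20 did not; no ratio of standard errors moved by as much with a narrower window.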
